A study of Mus musculus with 9 samples.

Results

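The 10 genes described here, Hspa5, Hsp90b1, Xbp1, Dnajb9, Pdia4, Pdia6, Sdf2l1, Herpud1, Creld2 and Calr, belong to the unfolded protein response of the endoplasmic reticulum (ER) and were chosen by name from 23309 gene symbols. All 10 passed the filter on low values, which asks for 1 FPKM or more as the average of 9 libraries, as did 10497 genes in all. D2.0R cells, a mouse mammary tumour line described by the study as dormant in basement membrane extract (BME) and proliferating once type I collagen (COL) is added, were cultured in 3D with 2% FBS on BME for 1 day, on BME for 5 days or on BME + COL for 5 days. RNA was sequenced from 3 cultures of each kind. The labels name no drug, allele or transgene, all groups are the same line, and the matrix and the days in culture differ. FPKM is the number of fragments scaled by transcript length and by the fragments mapped, and transcript values were summed by gene.

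The ER folds proteins destined for the membrane and for secretion. When unfolded proteins build up there, the sensors IRE1, ATF6 and PERK raise the production of chaperones, folding enzymes and degradation factors and slow translation. Hspa5 encodes BiP, the HSP70 chaperone of the ER that also holds the sensors inactive, and IRE1 acts by removing a short intron from Xbp1 mRNA, which yields the active transcription factor. Secretory epithelia such as the mammary gland depend on this system.

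Aligned sequence came to 7.21 to 9.37 gigabases per library. The interval that Cufflinks gives around a transcript of these genes reached 0.51% to 8.85% to either side. It is made within a library and does not cover the spread between cultures. The 10 genes together took 0.83%, 0.85% and 0.57% of the summed FPKM in replicates a, b and c of BME day 1, 0.64%, 0.64% and 0.71% on BME day 5 and 1.08%, 1.07% and 1.04% on BME + COL day 5. BME day 1 replicate c stood apart. Its members lay, in the median, 0.53 below the other BME day 1 libraries on the log2 scale, where the median of all genes lay 0.08 above them. In BME day 5 replicate b the members' median gap was -0.38, and that of all genes -0.24. Of 10 mammary epithelial markers, Krt8 and Krt18 were the highest, at 395 to 1324 and 362 to 1088 FPKM, while Krt19, Krt5, Cldn3 and Cldn4 were under 1 FPKM in every library. The 10 summed to 1464 to 1628 FPKM on BME day 1, 785 to 1170 on BME day 5 and 2364 to 2471 on BME + COL. On BME day 5, 4 of the 5 tested were lower than on BME + COL, beside 45.3% of all genes. Of 12 markers of other cell types, 8 were under 1 FPKM in every library, with Emr1 and Cd3e listed at 0, and the 12 summed to 9.90 to 10.5 FPKM on BME day 1, 11.8 to 16.9 on BME day 5 and 6.19 to 6.55 on BME + COL. Of the 4 tested, Cd68, Col1a1 and Pdgfrb were higher and Acta2 lower on BME day 5 than on BME + COL. The shares of all genes were 30.3% higher and 45.3% lower. Pdgfrb was at 7.88 ± 1.03 FPKM on BME day 5 and 0.245 ± 0.037 on BME + COL (SD, n = 3). The part of either marker list in the differences of the members was not tested. As these are bulk samples, fewer cells with a gene and less RNA per cell cannot be told apart.

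Sequences before the transcription start differed among the members. The ER stress response element (ERSE) is the letters CCAAT, any 9 bases and CCACG, on either strand, and it is known as a site where ATF6 acts together with the factor NF-Y. In the 300 bases around each start (250 before, 50 after) that RefSeq gives on GRCm38.p6, it occurred in 39 of 32851 promoters (0.119%), among them those of Hspa5, Hsp90b1, Pdia6, Creld2 and Calr. The members were chosen as genes of the unfolded protein response, so finding the element among them is not a test. Hsp90b1 held 2 copies. Herpud1 held the related ERSE-II, ATTGG, any base and CCACG, found in 12 of all promoters (0.0365%). Neither was found in the windows of Xbp1, Dnajb9, Pdia4 and Sdf2l1, and TGACGTGG, a core of the site that XBP1 and ATF6 bind, was in none of the 10, against 0.676% of all promoters. The stretches below are shown because they hold these elements, with the fixed letters of ERSE or ERSE-II in capitals (the reverse complement where the element lies on the opposite strand). Dnajb9 is shown for comparison, as the member with the opposite change in expression. Pdia4 and Sdf2l1, not shown, also held neither element and, like Hspa5, were lower on BME day 5 than on BME + COL. Each stretch is written 5′ to 3′ on the gene's strand and lies wholly before the start.
Hspa5, chr2:34771960-34772089, plus strand: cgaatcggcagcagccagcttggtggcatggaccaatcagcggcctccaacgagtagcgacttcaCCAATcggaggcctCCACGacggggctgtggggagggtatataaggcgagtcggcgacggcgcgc
Hsp90b1, chr10:86705515-86705694, minus strand: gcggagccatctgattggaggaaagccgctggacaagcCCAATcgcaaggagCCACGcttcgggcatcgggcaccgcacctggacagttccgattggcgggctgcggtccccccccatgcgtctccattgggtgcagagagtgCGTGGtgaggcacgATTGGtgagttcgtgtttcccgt
Pdia6, chr12:17266439-17266558, plus strand: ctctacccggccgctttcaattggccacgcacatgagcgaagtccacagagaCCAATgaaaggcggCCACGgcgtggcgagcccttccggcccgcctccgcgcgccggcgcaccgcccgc
Calr, chr8:84847012-84847131, minus strand: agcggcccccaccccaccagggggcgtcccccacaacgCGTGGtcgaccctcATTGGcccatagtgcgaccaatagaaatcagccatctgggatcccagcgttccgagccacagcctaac
Creld2, chr15:88819476-88819595, plus strand: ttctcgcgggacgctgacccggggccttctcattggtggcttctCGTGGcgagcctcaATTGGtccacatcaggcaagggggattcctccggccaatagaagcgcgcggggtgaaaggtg
Herpud1, chr8:94386309-94386428, plus strand: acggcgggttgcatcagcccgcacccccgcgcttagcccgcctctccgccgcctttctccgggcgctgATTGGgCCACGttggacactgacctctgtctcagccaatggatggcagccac
Dnajb9, chr12:44210069-44210198, minus strand: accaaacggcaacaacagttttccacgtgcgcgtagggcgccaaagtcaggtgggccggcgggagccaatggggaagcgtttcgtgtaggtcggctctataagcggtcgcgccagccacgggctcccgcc

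The chaperones were highest on BME + COL at day 5. Hspa5 was at 606, 619 and 408 FPKM on BME day 1, at 414, 312 and 419.6 on BME day 5 and at 868, 864 and 841 on BME + COL day 5. All BME + COL libraries lay above all others, whereas BME day 1 replicate c fell among the BME day 5 libraries. The log2 difference of BME day 5 from BME + COL was -1.18 (SE 0.17, limma adjusted p = 0.000182), so the level on BME + COL was 2.27-fold higher. Hsp90b1, which encodes the HSP90 chaperone GRP94 of the ER, was at 592, 593 and 435 FPKM on BME day 1, 442, 290.3 and 465 on BME day 5 and 1111, 1088 and 1057 on BME + COL. It was 2.78-fold higher on BME + COL than on BME at day 5 (log2 difference -1.47, SE 0.19, limma adjusted p = 7.15e-05). Calr encodes calreticulin, a lectin chaperone that binds calcium, and was the most abundant member per length in every library. Its values were 1160.1, 1142 and 783 FPKM on BME day 1, 964, 842 and 1067 on BME day 5 and 1716, 1672 and 1673 on BME + COL. Day 1 and day 5 on BME overlapped, and the difference of BME day 5 from BME + COL was -0.82 on the log2 scale (SE 0.16, limma adjusted p = 0.000933).

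**Figure D1:**
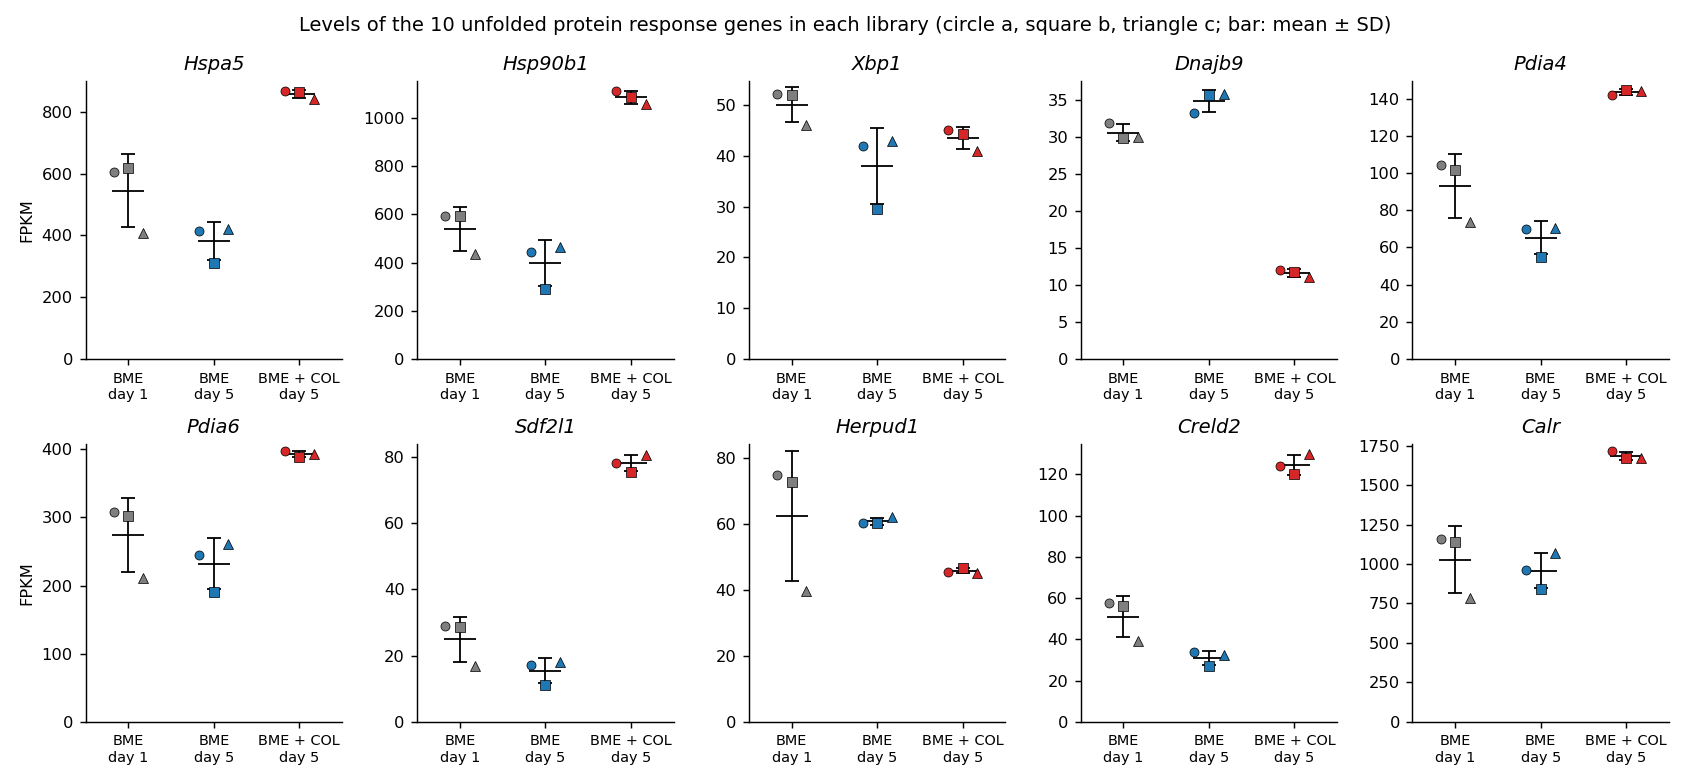
FPKM (y axes, from 0) of the 10 genes in each of 9 libraries, grouped by matrix and day (x axes), with circles, squares and triangles for replicates a, b and c and bars for the mean ± SD of 3 libraries. In 7 genes the BME + COL libraries lie above all others, in Dnajb9 they lie below all others, and the triangle of BME day 1 lies below the circle and square of its group in 9 of the 10 genes, all but Dnajb9. Among all genes tested, 45.3% were lower and 30.3% higher on BME day 5 than on BME + COL (limma adjusted p under 0.05). The share of all genes whose libraries separate in this way was not counted.

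The folding enzymes moved in the same direction. Pdia4 and Pdia6 are protein disulfide isomerases, which make and rearrange disulfide bonds. Pdia4 was at 104, 102 and 73.5 FPKM on BME day 1, 69.8, 55.0 and 70.7 on BME day 5 and 142, 145 and 144 on BME + COL, and no groups overlapped. The difference of BME day 5 from BME + COL was -1.15 (SE 0.15, limma adjusted p = 7.7e-05). Pdia6 was at 308, 303 and 211 FPKM on BME day 1, 245, 191 and 261 on BME day 5 and 398, 389 and 393 on BME + COL. The BME groups overlapped, and the difference of BME day 5 from BME + COL was -0.77 (SE 0.16, limma adjusted p = 0.00179). The 3′ end of Pdia6 overlaps Atp6v1c2 on the opposite strand. The library kit kept the strand, but whether the counting used it is not given in the sources used here.

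The widest differences among the members in this comparison were those of Sdf2l1 and Creld2, which are less abundant. Sdf2l1, an ER protein that works with BiP and its co-chaperones, was at 29.0, 28.7 and 16.9 FPKM on BME day 1, 17.3, 11.1 and 18 on BME day 5 and 78.2, 75.6 and 80.5 on BME + COL. The BME + COL libraries stood well above the rest, 5.13-fold above BME day 5 (log2 difference -2.36, SE 0.23, limma adjusted p = 1.39e-05). Creld2, an ER-stress inducible protein rich in cysteines, was at 57.5, 56.0 and 39.4 FPKM on BME day 1, 33.7, 27.0 and 32.2 on BME day 5 and 124, 120.1 and 129.7 on BME + COL. Its 3 groups did not overlap, and BME + COL was 4.03-fold above BME day 5 (log2 difference -2.01, SE 0.15, limma adjusted p = 2.58e-06).

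Dnajb9 went the other way. It encodes ERdj4, a co-chaperone of BiP and a target of spliced XBP1, and was at 31.9, 29.9 and 30 FPKM on BME day 1, 33.3, 35.7 and 35.8 on BME day 5 and 12.1, 11.8 and 11.1 on BME + COL. The BME + COL libraries lay below all others, and BME day 5 was 2.98-fold above them (log2 difference 1.58, SE 0.07, limma adjusted p = 1.98e-07). Within each library, the ratio of Hspa5 to Dnajb9 FPKM was 17.8 ± 3.73 (SD, n = 3) on BME day 1, 11 ± 1.95 on BME day 5 and 73.7 ± 2.09 on BME + COL. This ratio does not depend on the scaling of a library.

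Herpud1 and Xbp1 did not pass the test between BME and BME + COL at day 5. Herpud1, a membrane protein of ER-associated degradation, was at 75.0, 73.0 and 39.8 FPKM on BME day 1, 60.4, 60.4 and 62.2 on BME day 5 and 45.6, 46.8 and 45.3 on BME + COL. The day 5 groups did not overlap, yet the spread shared by all groups includes BME day 1, where replicate c was far below a and b, and the difference was 0.41 (SE 0.21, limma adjusted p = 0.0957). Without that library the difference was 0.41, with a limma adjusted p of 0.000458. Xbp1 was at 52.1, 51.9 and 46.0 FPKM on BME day 1, 41.9, 29.4 and 42.8 on BME day 5 and 45.1, 44.3 and 40.9 on BME + COL. The day 5 groups overlapped (difference -0.21, SE 0.14, limma adjusted p = 0.192).

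Between BME and BME + COL at day 5, 7 of the 10 members were thus lower on BME and 1 was higher, beside 45.3% and 30.3% of the 10497 genes tested, so most genes passed the test in this comparison. The median log2 difference was -0.98 over the members and -0.18 over all genes. With values rescaled to TPM the median of all genes was 0.20, and the members' median lay 0.84 below it, while with quantile normalization the medians were -0.56 and -0.04, a gap of 0.52. Hspa5, Hsp90b1, Pdia4, Pdia6, Sdf2l1, Creld2 and Calr were lower, and Dnajb9 higher, under each of the 23 alternatives. Some were smaller there, with TPM and quantile normalization giving -0.48 and -0.31 for Calr (limma adjusted p = 0.0144 and 0.0429), -0.83 and -0.70 for Hspa5, -0.80 and -0.68 for Pdia4 and -0.43 and -0.45 for Pdia6.

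The 3D cultures on BME changed less from day 1 to day 5. Pdia4 (-0.51, SE 0.15, limma adjusted p = 0.0300), Creld2 (-0.70, SE 0.15, limma adjusted p = 0.00949) and Xbp1 (-0.41, SE 0.14, limma adjusted p = 0.0488) were lower at day 5, and no member was higher. That is 3 of 10 lower and 0 of 10 higher, beside 22.2% and 9.09% of all genes. Hspa5 (-0.50, limma adjusted p = 0.0524), Sdf2l1 (-0.67, limma adjusted p = 0.0507) and Dnajb9 (0.19, limma adjusted p = 0.0651) lay close to the threshold. At an unadjusted p under 0.05 the count was 6 lower and 1 higher, beside 34.0% and 12.7% of all genes. The median over the members was -0.43, against -0.15 over all genes, and without BME day 5 replicate b these were -0.24 and -0.07. This comparison turned on single libraries. Without BME day 1 replicate c, 5 members were lower, with Hspa5, Sdf2l1 and Herpud1 gained and Xbp1 lost, beside 13.7% of all genes. Without BME day 1 replicate a or b, or without any of the BME + COL libraries, which add to the estimate of the spread, Creld2 alone was lower (1 of 10), beside 9.7% and 9.93% of all genes for the BME day 1 libraries and 14.7% to 15.5% for those of BME + COL. When BME day 1 replicate c and BME day 5 replicate b were both left out, a setting chosen after seeing the data, 9 members were lower, all but Dnajb9, beside 26.9% of all genes, and 18.5% of all genes were higher.

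BME + COL at day 5 was then compared with BME at day 1, which shares its libraries with the comparisons above. Here 7 members were higher and 1 was lower, beside 34.2% and 31.8% of all genes. The higher ones were Sdf2l1 (1.69, SE 0.23), Creld2 (1.31, SE 0.15), Hsp90b1 (1.02, SE 0.19), Calr (0.74, SE 0.16), Hspa5 (0.68, SE 0.17), Pdia4 (0.64, SE 0.15) and Pdia6 (0.54, SE 0.16), with limma adjusted p-values of 5.74e-05 to 0.0151. Dnajb9 was lower by -1.39 (SE 0.07, limma adjusted p = 6.45e-07). Herpud1 (-0.39, limma adjusted p = 0.120) and Xbp1 (-0.20, limma adjusted p = 0.222) did not pass. With TPM, Pdia6 was no longer called and Xbp1 and Herpud1 were lower, and with quantile normalization Hspa5 was not called either. Without BME day 1 replicate c, Herpud1 was lower by -0.69.

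**Figure D2:**
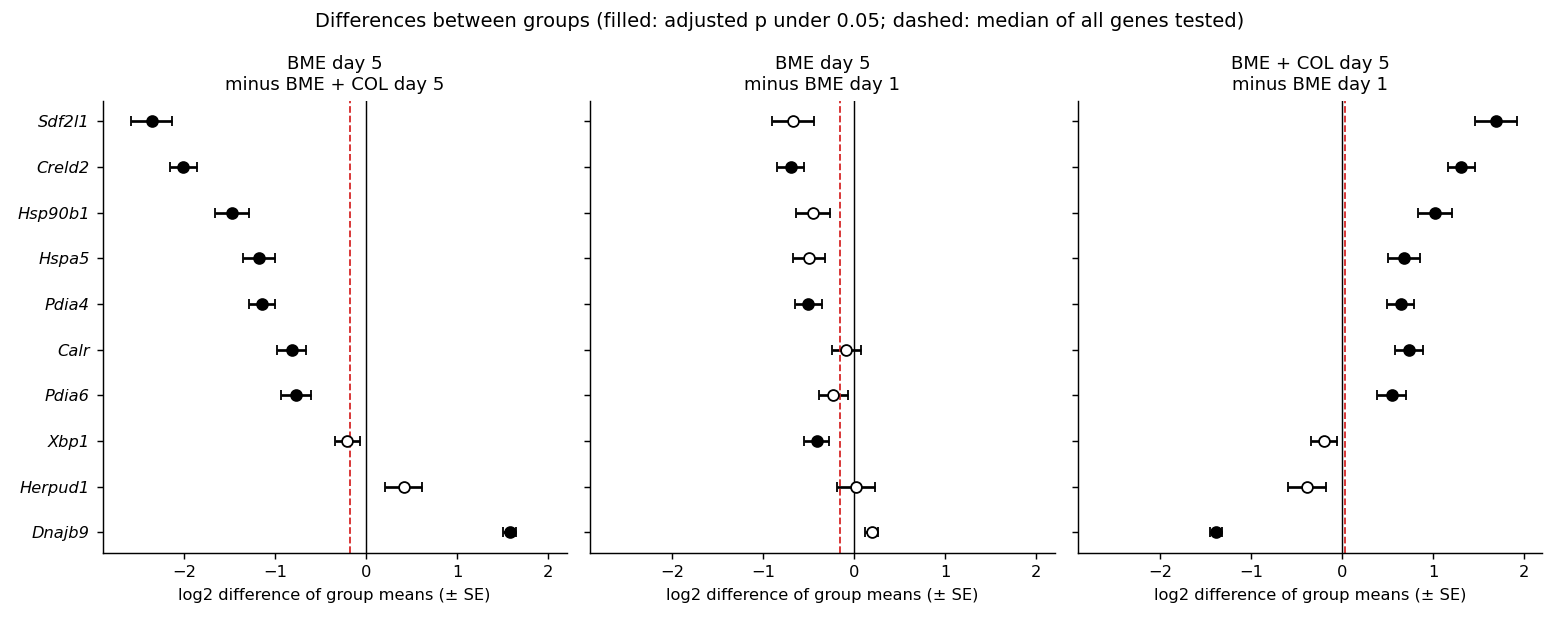
Log2 differences between group means (x axes, ± SE from limma) of the 10 genes in the 3 comparisons, with filled points for an adjusted p under 0.05 and a dashed line for the median of the 10497 genes tested. Sdf2l1 (-2.36) and Dnajb9 (1.58) lie at the ends of the first panel, and the points of the middle panel lie between -0.70 and 0.19.

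In order of level, 7 members (Hspa5, Hsp90b1, Pdia4, Pdia6, Sdf2l1, Creld2 and Calr) ran BME + COL day 5, BME day 1, BME day 5. The upper step passed the test in all 7 and the lower step in Pdia4 and Creld2. The order for Dnajb9 was BME day 5, BME day 1, BME + COL day 5, and the lower step passed. For Herpud1 (BME day 1, BME day 5, BME + COL day 5) and Xbp1 (BME day 1, BME + COL day 5, BME day 5) no step between neighbouring groups passed the test, although the day 5 groups of Herpud1 and the BME day 1 and BME + COL groups of Xbp1 did not overlap.

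The files give 2 forms of Xbp1, which differ by the intron that IRE1 removes. The intron holds 26 bases in exon 4 (mm9 chr11:5424285-5424310, plus strand), inside the coding region, so its removal shifts the reading frame. By the longest open reading frame of each form, the unspliced NM_013842 codes for 267 residues and the spliced NM_001271730 for 371. The intron is shown in capitals, between coding bases of exon 4.
Xbp1, chr11:5424242-5424355, plus strand, mm9: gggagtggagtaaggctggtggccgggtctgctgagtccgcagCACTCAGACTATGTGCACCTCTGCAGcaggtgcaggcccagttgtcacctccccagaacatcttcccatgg

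The spliced form made up 31.6%, 36.4% and 26.7% of the Xbp1 FPKM on BME day 1, 29.8%, 33.3% and 39.3% on BME day 5 and 44.3%, 43.3% and 39.7% on BME + COL. The BME + COL shares lay just above all others. Its level was 15.9 ± 3.34 FPKM (SD, n = 3) on BME day 1, 13 ± 3.56 on BME day 5 and 18.5 ± 1.96 on BME + COL. Across 3562 transcripts of genes with several forms, the ratio of a transcript to the rest of its gene was compared with limma. The log2 ratio of spliced to unspliced Xbp1 differed by -0.51 between BME day 5 and BME + COL (SE 0.21, limma adjusted p = 0.124), by 0.68 between BME + COL and BME day 1 (SE 0.21, limma adjusted p = 0.0837) and by 0.17 between BME day 5 and BME day 1 (SE 0.21, limma adjusted p = 0.737). None was called, beside 23.6%, 10.2% and 1.4% of all transcripts, and none was under the 15 alternatives to this fit. The unadjusted p was 0.0439, 0.0129 and 0.450. Cufflinks divides reads between these forms by the few that cover the intron, so the shares are estimates.

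Hspa5 also has 2 forms, which differ by an intron of 82 bases before the coding region (mm9 chr2:34627667-34627748) and share a reading frame of 655 codons. The form that retains it, NM_022310, took 18.5%, 18.6% and 17.5% of the Hspa5 FPKM on BME day 1, 16.0%, 18.2% and 16.3% on BME day 5 and 13.1%, 13.2% and 13.9% on BME + COL. The BME + COL shares lay below all others. The log2 ratio of the spliced to the retaining form was lower on BME day 5 than on BME + COL by -0.39 (SE 0.11, limma adjusted p = 0.0395) and higher on BME + COL than on BME day 1 by 0.53 (SE 0.11, limma adjusted p = 0.0238). These calls held in 4 and 8 of the 16 fits, the first among them. Of all transcripts, 23.6% and 10.2% were called in these comparisons. Between BME day 5 and BME day 1 the ratio differed by 0.14 (SE 0.11, limma adjusted p = 0.568), which was not called.

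**Figure D3:**
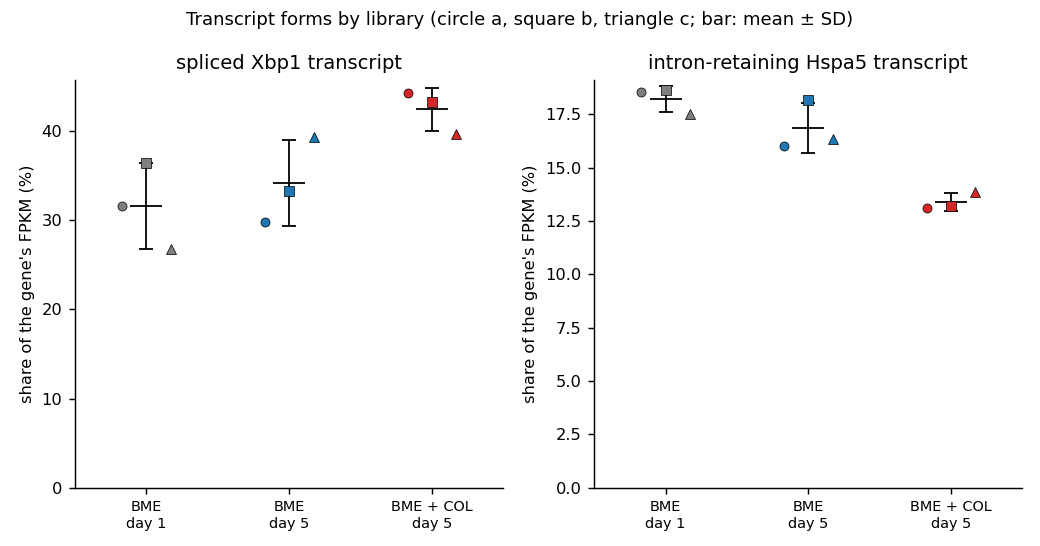
Share of the gene's FPKM (y axes, in %, from 0) taken by the spliced Xbp1 transcript and by the intron-retaining Hspa5 transcript in each of 9 libraries, with bars for the mean ± SD of 3. The Xbp1 means are 31.6%, 34.1% and 42.4%, and the Hspa5 means 18.2%, 16.8% and 13.4%.

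Other genes of the pathway were counted from lists of sensors, arms and ER functions. For each count on BME day 5 against BME + COL, the background is 45.3% of all genes lower and 30.3% higher, and with TPM 30.2% of 11452 genes lower and 47.1% higher. Of 15 sensors, processing enzymes and factors, 7 were higher and 6 lower on BME than on BME + COL at day 5 (9 and 5 with TPM). The sensor PERK, encoded by Eif2ak3, was at 8.63, 8.15 and 7.98 FPKM on BME day 1, 10.2, 8.21 and 10.7 on BME day 5 and 3.86, 3.84 and 3.54 on BME + COL, so that BME day 5 lay 1.34 above BME + COL on the log2 scale (SE 0.10, limma adjusted p = 3.03e-06). Creb3l1, an ATF6-like transmembrane factor, was higher by 1.51 (SE 0.17, limma adjusted p = 2.9e-05). The NF-Y subunits Nfyc (-1.19, SE 0.10) and Nfyb (-1.09, SE 0.14) were lower, with limma adjusted p-values of 6.94e-06 and 9.69e-05. Of 12 genes listed for the PERK and ATF4 arm, 7 were higher and 2 lower on BME (9 and 0 with TPM). The highest were Cebpb (1.5, SE 0.19), a transcription factor, and Vldlr (1.42, SE 0.20), a lipoprotein receptor, and the lower ones Atf3 (-0.61, SE 0.18) and Ppp1r15b (-0.45, SE 0.14), which directs a phosphatase to eIF2. The median of this list was 0.85 against -0.18 over all genes. Against BME day 1, 8 of the 12 were lower on BME + COL and none was higher, beside 31.8% and 34.2% of all genes. On BME from day 1 to day 5, 4 of the 12 were lower and none was higher, beside 22.2% and 9.09%. The list median there was -0.40, against -0.15 over all genes. Without BME day 1 replicate c, 7 of the 12 were lower, beside 13.7% of all genes.

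Among 10 other ER chaperones and co-chaperones tested, 5 were lower and 2 higher on BME day 5 than on BME + COL. Manf, a secreted ER-stress protein, was at 96.7, 91.0 and 71 FPKM on BME day 1, 58.0, 35.5 and 54.7 on BME day 5 and 165, 165 and 171 on BME + COL (difference of BME day 5 from BME + COL -1.79, SE 0.18, limma adjusted p = 1.91e-05). Hyou1, the HSP110-like partner of BiP, was lower by -1.04 (SE 0.12), and Sdf2, the relative of Sdf2l1, was higher by 0.70 (SE 0.10), as was the BiP nucleotide exchange factor Sil1 by 0.46 (SE 0.10). Of 16 other disulfide isomerases and oxidases, 10 were lower and 3 higher. Among them were the peroxiredoxin Prdx4 (-1.18, SE 0.20), Pdia5 (-1.18, SE 0.14), Qsox1 (0.77, SE 0.19) and Tmx4 (0.48, SE 0.06). With TPM these counts were 5 lower and 5 higher of 11, since 1 more chaperone passed the filter, and 5 lower and 6 higher of 16. Quantile normalization gave 4 lower and 5 higher of 10, and 5 lower and 6 higher of 16. The shares of all genes there were 40.38% lower and 36.11% higher.

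ER-associated degradation, which removes misfolded proteins, had 7 lower and 7 higher of 24, beside 45.3% and 30.3% of all genes, and 3 lower and 13 higher with TPM, beside 30.2% and 47.1%. The lectins Erlec1 (1.22, SE 0.08) and Os9 (1.18, SE 0.07) were higher, and Edem1 (-0.80, SE 0.11) and Ube2j2 (-0.79, SE 0.11) were lower. Of 24 genes of the translocon, signal peptidase and signal recognition particle, 20 were lower and 2 higher, led by Spcs3 (-1.17, SE 0.12) and Ssr2 (-1.06, SE 0.10) against Sec62 (0.43, SE 0.09) and Spcs1 (0.26, SE 0.08). This list held 16 lower and 3 higher with TPM. For N-glycosylation, 13 of 20 were lower and 2 higher (12 and 6 with TPM), among them Alg6 (-1.19, SE 0.12), Mogs (-0.96, SE 0.12), Alg2 (0.60, SE 0.10) and Alg1 (0.51, SE 0.07). For transport between ER and Golgi, 14 of 22 were lower and 2 higher (7 and 6 with TPM), among them Tmed2 (-0.93, SE 0.14), Sec13 (-0.91, SE 0.13), Arfgap3 (1.40, SE 0.07) and Sec23a (0.22, SE 0.09). Under quantile normalization, with 40.38% of all genes lower and 36.11% higher, the transport list had 7 lower and 7 higher. The translocon list had 13 lower and 4 higher there, N-glycosylation 11 and 8, and ER-associated degradation 3 and 13. From day 1 to day 5 on BME, the translocon list had 16 lower and the transport list 15, with none higher in either. The shares of all genes were 22.2% lower and 9.09% higher. With TPM, 15 and 12 were lower and 1 and 0 higher, beside 20.1% and 15% of all genes. Without BME day 1 replicate c, 13 of the 24 and 6 of the 22 were lower, beside 13.7%.

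**Figure D4:**
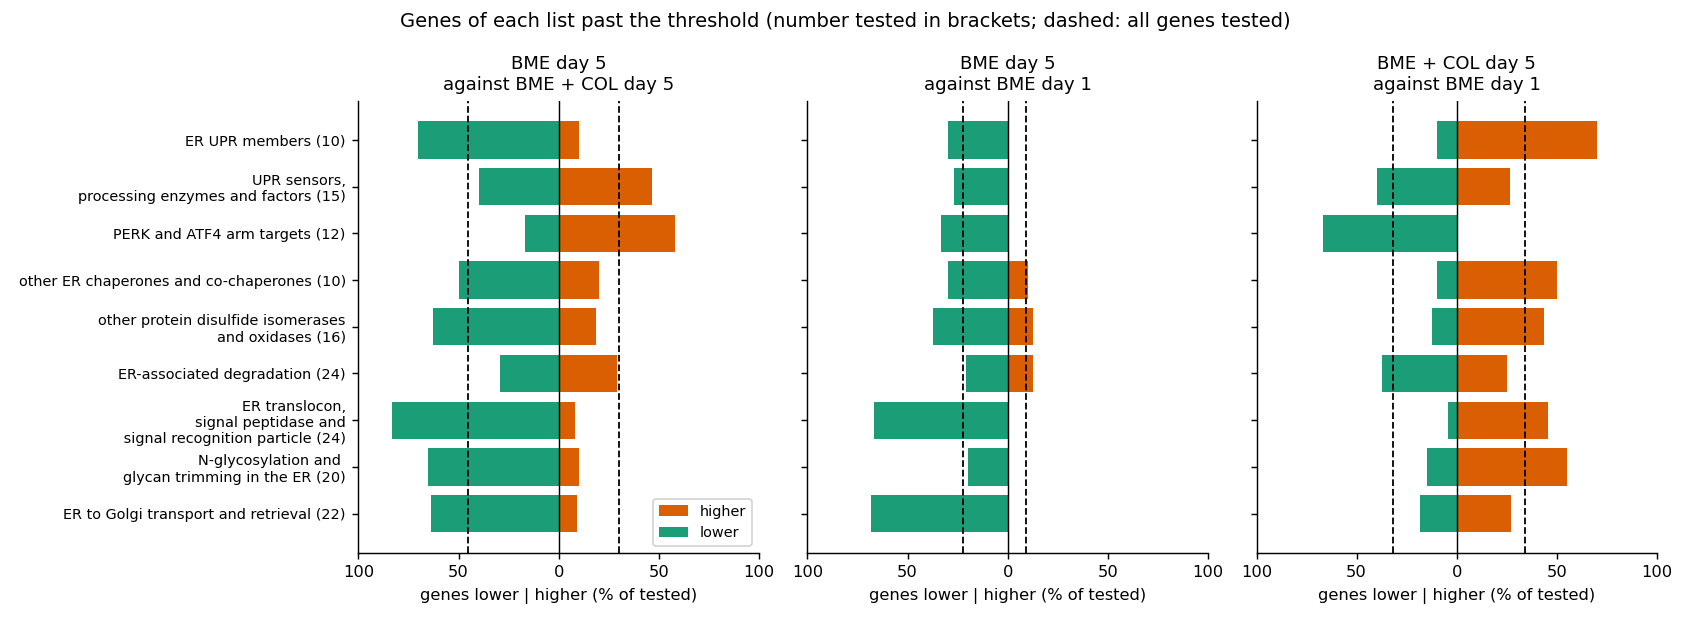
Percent of the tested genes of each list (number in brackets) that were lower (green, to the left) or higher (orange, to the right) in the 3 comparisons, with dashed lines for all genes tested. In the first panel the members have 7 of 10 lower, the translocon list 20 of 24 lower and the PERK and ATF4 list 7 of 12 higher.

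Outside the members, 9 tested genes held an ERSE in the promoter window and 7 an ERSE-II. Of the 9, 3 were lower on BME day 5 than on BME + COL (Canx, Dnajc3 and Hnrnpa3), 1 was higher (Acacb, 2.83), beside 45.3% and 30.3% of all genes, and the median was -0.19, against -0.18 over all genes. Of the 7, 3 were lower and 2 higher.

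By the root mean square of the difference between their log2 deviations over 9 libraries, the gene most like Hspa5 among 10496 was Pdia4 (0.042). Among the other members, Hsp90b1 (0.168) ranked 115, Pdia6 (0.172) 138 and Calr (0.191) 282 of the 10496. Further down came Creld2 (0.359, rank 3056), Xbp1 (0.454, rank 4495), Sdf2l1 (0.528, rank 5558), Herpud1 (0.676, rank 7274) and Dnajb9 (1.19, rank 9809). The measure also counts the size of a change. Creld2 (-2.01) and Sdf2l1 (-2.36) had the same order of groups as Hspa5 (-1.18), with wider differences between BME day 5 and BME + COL. Of 7621 genes outside the members with a mean of at least 5 FPKM, the 8 most like Hspa5 were Mapk6 (0.084), Slc25a33 (0.096), Hyou1 (0.096), Eif2s2 (0.098), Spcs3 (0.109), Phgdh (0.112), Rhobtb3 (0.116) and Mrps18b (0.120). Hyou1 and Spcs3 are ER genes.

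The proliferation marker Mki67 was at 14.1, 17.9 and 15.8 FPKM on BME day 1, 18.5, 4.88 and 14.6 on BME day 5 and 47.3, 48.3 and 42.3 on BME + COL. Beside 45.3% of all genes, all 6 cell cycle markers were lower on BME day 5 than on BME + COL. Their summed level was 187 to 215 FPKM on BME day 1, 85.0 to 202 on BME day 5 and 462 to 475 on BME + COL, and its part in the differences of the members was not tested.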

How the data were processed

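RNA was sequenced from 3 biological replicates each of D2.0R cells on BME day 1, BME day 5 and BME + COL day 5. The authors deposited FPKM per transcript, made with Cufflinks (version not given in the sources used here), one file per library; read counts were not used here. In these files the FPKM sits in a text field beside the other fields, such as the interval and read depth. Tools given in the submitters' processing notes are TopHat2 2.0.8, Trimmomatic 0.30, CASAVA 1.8.4 and Partek, and the builds given are mm9 and NCBIM37. The 30563 RefSeq transcripts were added up to genes, those averaging 1 FPKM or more were kept, and log2(FPKM + 0.1) was fitted by limma 3.58.1 (R 4.3.3) with an intensity trend, 3 group means and 6 residual degrees of freedom. Two-sided p-values received a Benjamini-Hochberg adjustment over all genes of a comparison, with a threshold of 0.05. The fold change of a low gene is understated on this scale. The fit was tested on simulated data.

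The members, gene lists and tests were chosen with earlier results of these data known. The named genes were all members, per list up to 2 rises and 2 falls called between BME and BME + COL at day 5, the 8 genes most like Hspa5, and Mki67. Atp6v1c2, the marker genes, the genes with an ERSE, and the transcript forms of Xbp1 and Hspa5 were named after their values were seen. Promoter sequences were RefSeq's for GRCm38.p6 (all 10 members matched) and genome sequence was mm9. Alternatives were other pseudocounts, filters, scalings, transcripts, thresholds and library sets.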

Additional observations from a re-analysis of the deposited data

How the results depend on the processing

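Between BME and BME + COL at day 5, 7 members stayed lower under every alternative, beside 28.74% to 51.55% of all genes. The 1 higher member became 2, with Herpud1 added, with TPM, quantile normalization, genes under 300 nt left out, only the 6 libraries compared, and BME day 1 c and BME day 5 b left out together (chosen after seeing the data). In these fits 29.83% to 48.68% of all genes were higher. Leaving out each library gave 1 to 2, beside 27.78% to 34.38%. From day 1 to day 5 on BME, higher members went from 0 to 1 (Dnajb9) with TPM, median-ratio scaling, quantile normalization and short genes left out, and were 0 to 1 when each library was left out. Of all genes, 15% to 19.28% were higher under those scalings and 5.078% to 12.07% with a library left out. Lower members went from 3 to 1 with no filter, quantile normalization, short genes left out, only 6 libraries or an adjusted p under 0.01. Of all genes, the 22.2% lower became 5.89% to 19.5%. The count was 1 to 5 with each library left out, beside 9.7% to 30.9%, and 9 without both libraries, beside 26.9%. For BME + COL against BME day 1, the 1 lower member became 3 with TPM, quantile normalization, short genes or both libraries left out. It became 2 with the most abundant transcript or only 6 libraries, and 1 to 2 with each library left out. Across these fits 27.87% to 46.59% of all genes were lower. Higher members were 5 to 7 over all alternatives, beside 20.84% to 43.5%, with 5 under quantile normalization (35.45%).

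Signs turned for values that had not passed the test. Xbp1 between BME and BME + COL at day 5 was 0.13 with TPM, 0.19 with quantile normalization and 0.16 without short genes. Herpud1 from day 1 to day 5 was -0.28 to 0.18 when each library was left out, lowest without BME day 1 replicate c, and -0.27 without both libraries. Calr from day 1 to day 5 was 0.03 with TPM and median-ratio scaling, 0.13 with quantile normalization and 0.07 without short genes. It was 0.01, 0.00065 and 0.0034 without BME day 1 a, b and BME day 5 b. The cause was not tested.

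Over all genes, 40.1% of calls (3179) were higher on BME than on BME + COL at day 5. With TPM these were 60.9% (5395), and without short genes 61.3% (5092). At a minimum mean of 5 FPKM, 1991 were higher. From day 1 to day 5, 29.1% (954) were higher. With TPM, median-ratio scaling, quantile normalization and short genes left out these were 42.7% (1718), 45.4% (1768), 48.1% (1903) and 55.0% (2017). Higher calls were 585 at a minimum mean of 5 FPKM, 1943 without both libraries and 533 without BME day 1 a or b. Lower calls (2327) were 1018, 1042 and 1433 without BME day 1 a, b or c and 1544 without BME + COL a. Higher and lower calls were 452 and 618 with 6 libraries and 412 and 635 at the stricter threshold. For BME + COL against BME day 1, 51.8% were higher, against 33.8% with TPM and 35.7% without short genes, and 3343 lower calls became 5335 with TPM and 2169 at a minimum mean of 5 FPKM.

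With the replicate letter as a block, 7 members were lower and 1 higher between BME and BME + COL at day 5. The shares of all genes were 44.9% and 29.8%. From day 1 to day 5, 2 members were lower (Xbp1 lost), beside 19.6%. In BME + COL against BME day 1, 7 were higher and 1 lower, beside 33.7% and 31.2%. Deviations of same-letter libraries correlated at -0.23 to 0.096, so letters were not taken to pair samples.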
